A study of Homo sapiens with 12 samples.

Results

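The genes described here make nitric oxide (NO), make the cofactor that the NO-producing enzymes need, or handle their substrate arginine. They were chosen by name, as the rows of the deposited table for *NOS1*, *NOS2*, *NOS3*, *GCH1*, *PTS*, *SPR*, *QDPR*, *ARG2*, *ASS1* and *ASL*, which are 10 of 45416 genes. The cells were U251, an established human glioblastoma cell line, transfected with a control siRNA (siNC) or with 1 of 2 siRNAs against *PD-L1*, siPDL1-1 and siPDL1-2. Transfection lasted 48 h, and the cells were then left unstimulated or were stimulated with IFNγ (100 U/ml) for 24 h. Each of the 6 groups held 2 RNA-seq libraries, 12 in all, with between 17101069 and 55657393 reads on genes. The methods speak of independent experiments, the labels do not say what separates the libraries of a group, and the p-values therefore measure only the spread between these libraries. All groups were transfected, so no untransfected cells are part of the comparisons.

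NO synthases turn arginine into NO and citrulline. *NOS1* is the neuronal and *NOS3* the endothelial enzyme, whereas *NOS2* encodes the inducible enzyme, known for its induction by IFNγ together with other inflammatory signals in macrophages and, less uniformly, in human astrocytes and glioma cells. Every NO synthase requires tetrahydrobiopterin (BH4), which GTP cyclohydrolase (*GCH1*), pyruvoyltetrahydropterin synthase (*PTS*) and sepiapterin reductase (*SPR*) make in that order from GTP and which dihydropteridine reductase (*QDPR*) regenerates. Arginase (*ARG2*) competes for arginine, while argininosuccinate synthase (*ASS1*) and argininosuccinate lyase (*ASL*) rebuild arginine from citrulline.

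Expression is given as the authors' normalized CPM. These are reads scaled to the size of the library and by a further factor per library, between 0.959 and 1.04. In these units 1 read was worth between 0.0187 and 0.0586 CPM depending on the library. Group differences are log2 fold changes of CPM plus 1, taken from limma fitted over all 12 libraries, and the added 1 makes the change of genes near or below 1 CPM look smaller than it is. Calls required a fold change above 1.5 together with FDR < 0.01, and the Benjamini-Hochberg adjustment covered the 17982 genes that passed a filter on low reads. Of the 10 genes, 9 passed this filter, and *NOS1* did not.

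*CD274*, which encodes PD-L1 and is the gene the siRNAs target (chr9:5450503-5470566, plus strand, GRCh38), was examined first. In siNC cells it was 4.60 and 4.91 CPM without stimulation and 71.2 and 76.0 CPM after IFNγ. With siPDL1-1 it was 2.67 and 2.73 CPM, and 60.9 and 66.7 CPM after IFNγ. With siPDL1-2 it was 3.57 and 3.45 CPM, and 37.5 and 35.0 CPM after IFNγ. Every knockdown library was thus below the siNC libraries of the same stimulation, but the reduction passed the thresholds only for siPDL1-1 in unstimulated cells (log2 fold change -0.64, FDR = 1.76e-05) and for siPDL1-2 after IFNγ (-1.001, FDR = 4.25e-07). After IFNγ, siPDL1-1 left *CD274* at -0.20 against siNC (95% interval -0.37 to -0.04, FDR = 0.0498), and the dependence of the siPDL1-1 effect on IFNγ was 0.43 (FDR = 0.0399), not called. The gene shares its locus with *AL162253.2* on the other strand (mean 3.21 CPM over the 12 libraries), and strand was not used in counting.

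IFNγ raised *NOS2* and *GCH1* in all 3 siRNA groups and changed none of *PTS*, *SPR* and *QDPR* past the thresholds in any of them. In siNC cells, 2 of the 9 tested genes were called, both higher, where 8.12% of all genes tested were called. In siPDL1-1 cells, 3 were called (*NOS2* and *GCH1* higher, *ARG2* lower), against 6.87% of all genes. In siPDL1-2 cells the same 3 were called in the same directions, against 5.27% of all genes. The median log2 fold change over the 9 genes was -0.02, -0.14 and 0.05 in the 3 siRNA groups, and over all genes tested it was 0.0012, -0.016 and -0.015.

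*NOS2* (chr17:27756766-27800529, minus strand, GRCh38) had few reads. In siNC cells it was 0.490 and 0.683 CPM without stimulation, from 10 and 27 reads, and 1.59 and 1.72 CPM after IFNγ, from 85 and 83 reads. In siPDL1-1 cells it was 0.754 and 1.06 CPM, and 3.94 and 3.67 CPM after IFNγ. In siPDL1-2 cells it was 0.839 and 0.824 CPM, and 2.11 and 1.62 CPM after IFNγ. Every stimulated library lay above every unstimulated one, and the pair from stimulated siPDL1-1 cells stood above the other stimulated libraries. Partial copies of *NOS2* exist in the human genome, so reads could have been split between them. In bulk RNA, more cells with the transcript and more transcript per cell cannot be told apart.

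The log2 fold change of *NOS2* with IFNγ was 0.75 in siNC cells (standard error 0.129, FDR = 3.02e-04), 1.34 in siPDL1-1 cells (FDR = 1.07e-06) and 0.64 in siPDL1-2 cells (FDR = 0.00181). On the recovered reads, without the added 1 CPM, edgeR's quasi-likelihood test gave 1.41, 2.07 and 1.14 for the same 3 effects. The call in siPDL1-2 cells was lost with DESeq2's Wald test (FDR = 0.0138), without either unstimulated siPDL1-2 library (FDR = 0.0162 and 0.0182) and without siPDL1-2 IFNγ replicate 1 (FDR = 0.0220).

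The stimulated groups had means of 3.81 ± 0.194 CPM for siPDL1-1, 1.87 ± 0.347 CPM for siPDL1-2 and 1.66 ± 0.0923 CPM for siNC (SD over 2 libraries). It was called higher with siPDL1-1 than with siNC (log2 fold change 0.86, 95% interval 0.58 to 1.13, FDR = 1.08e-04) and than with siPDL1-2 (0.75, FDR = 8.09e-04). The comparison of the siRNAs lost its call with DESeq2 (FDR = 0.0195) and without siPDL1-2 IFNγ replicate 2 (log2 fold change 0.63, FDR = 0.0140). Between siPDL1-2 and siNC the difference was 0.10 (95% interval -0.17 to 0.38), and their libraries overlapped. In unstimulated cells *NOS2* was at 0.26 with siPDL1-1 and 0.21 with siPDL1-2 against siNC, neither called (FDR = 0.146 and 0.215). The effect of siPDL1-1 on *NOS2* was not shown to depend on IFNγ, as the interaction of 0.59 had an FDR of 0.107.

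The other NO synthases were near the limit of detection. *NOS3* (chr7:150991017-151014588, plus strand, GRCh38) ranged from 0.294 to 1.25 CPM over the 12 libraries, from 6 to 43 reads, and was not called in any comparison. Its highest pair was unstimulated siPDL1-1 (1.25 and 0.918 CPM), with a log2 fold change of 0.51 against siNC (FDR = 0.0254). *ATG9B*, named after its values were seen, overlaps *NOS3* from the other strand and had a mean of 5.76 CPM, so reads from the overlap could belong to either gene. *NOS1* (chr12:117208142-117452170, minus strand, GRCh38) had between 0 and 4 reads per library, 10 in total. It had 0 reads in 5 libraries, where 3 reads would have been between 0.0706 and 0.141 CPM, limits that cover counting error only.

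*GCH1* (chr14:54842008-54902826, minus strand, GRCh38), the gene of the first and rate-limiting step of BH4 synthesis, had the largest change with IFNγ among the 9 genes in each siRNA group. In siNC cells it was 4.90 and 6.93 CPM without stimulation and 29.4 and 30.2 CPM after IFNγ. In siPDL1-1 cells it was 3.80 and 3.72 CPM, and 34.9 and 40.5 CPM after IFNγ. In siPDL1-2 cells it was 5.44 and 6.47 CPM, and 20.8 and 18.7 CPM after IFNγ. The stimulated groups did not overlap one another and were ordered siPDL1-1, siNC, siPDL1-2, whereas without stimulation siPDL1-1 was lowest and the libraries of siNC and siPDL1-2 overlapped.

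The log2 fold change of *GCH1* with IFNγ was 2.17 in siNC cells (95% interval 1.90 to 2.44, FDR = 5.56e-09), 3.02 in siPDL1-1 cells (2.75 to 3.29, FDR = 8.71e-11) and 1.58 in siPDL1-2 cells (1.31 to 1.85, FDR = 2.59e-07). The effect in siPDL1-1 cells exceeded that in siPDL1-2 cells by 1.44 (95% interval 1.06 to 1.82, FDR = 9.42e-05), in a comparison that was added after the data had been seen. *GCH1* was the only one of the 9 genes called there, where 4.87% of all genes tested were called. Against siNC, the interaction was 0.85 for siPDL1-1 (FDR = 0.0151) and -0.59 for siPDL1-2 (FDR = 0.0214), so that none of the 9 genes was called for either siRNA, where 0.968% and 7.62% of all genes tested were. At an unadjusted p under 0.05 in limma there were 2 and 4 of the 9, where 15.5% and 39.6% of all genes were. For siPDL1-1, edgeR and DESeq2 each called 1 (*GCH1*), where 0.906% and 0.901% of all genes were called. For siPDL1-2 they each called 0, where 8.04% and 7.50% of all genes were called. Without siNC unstimulated replicate 1 the siPDL1-1 interaction was called (1.06, FDR = 0.00125), and without siNC unstimulated replicate 2 the siPDL1-2 interaction was (-0.80, FDR = 0.00306). Leaving out the other unstimulated siNC library moved each value the opposite way. The siPDL1-1 interaction was 0.64 without siNC unstimulated replicate 2, and the siPDL1-2 interaction was -0.38 without siNC unstimulated replicate 1.

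**Figure D1:**
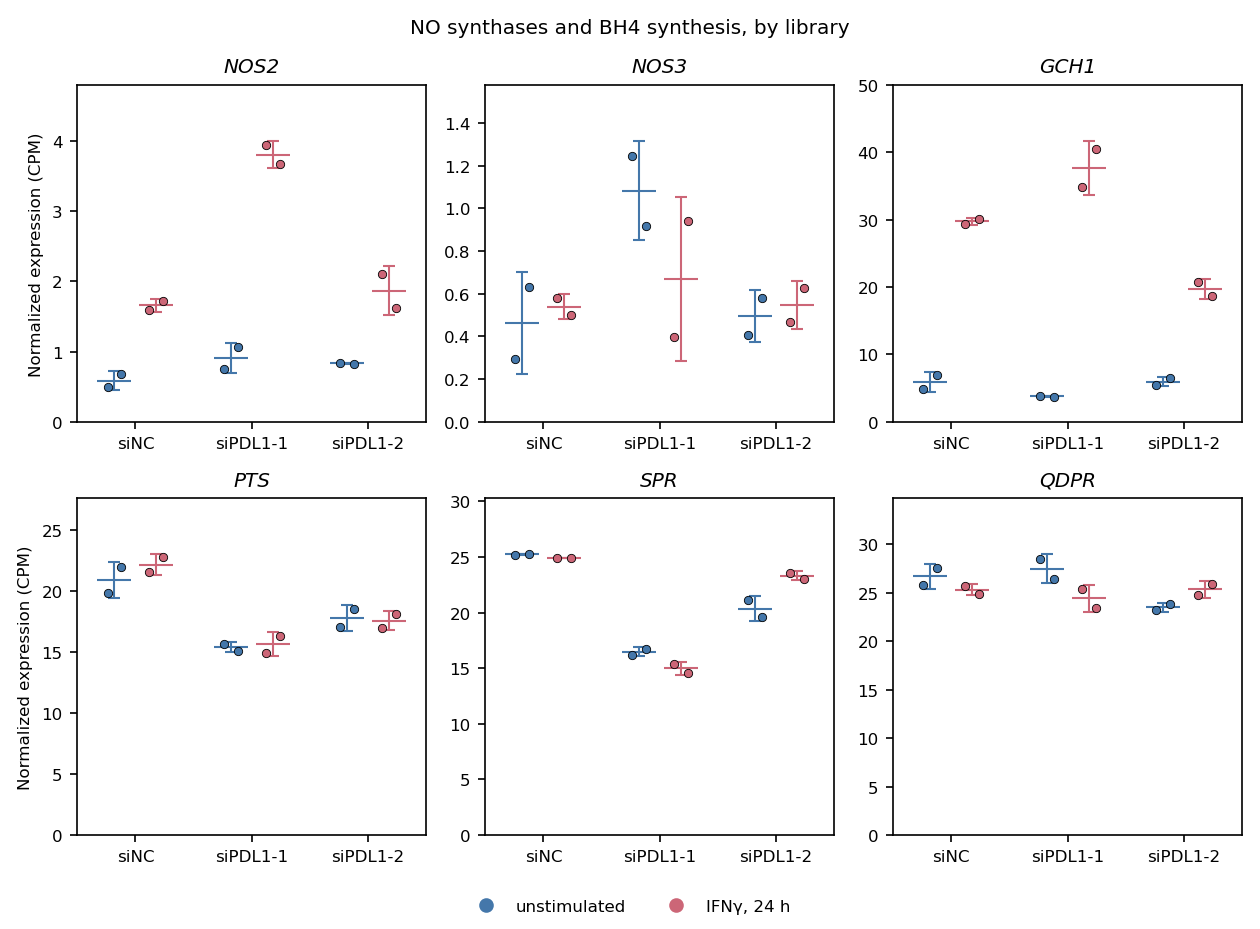
Normalized expression in CPM of *NOS2*, *NOS3* and the genes of BH4 synthesis and regeneration, by siRNA (horizontal axis) and stimulation (colour); points are the 2 libraries of a group, horizontal marks their mean and bars ± SD, and each panel has its own vertical axis from 0. *GCH1* rose from between 3.72 and 6.93 CPM to between 18.7 and 40.5 CPM with IFNγ, while *SPR* was lowest in the siPDL1-1 groups.

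Each siRNA was then compared with siNC. In unstimulated siPDL1-1 cells, 1 of the 9 was called (*SPR*, lower), where 4.00% of all genes tested were called, and with siPDL1-2, 0 of the 9 were, against 6.17%. By edgeR's quasi-likelihood test and by DESeq2 0 of the 9 were called with siPDL1-2 as well, against 7.52% and 6.37%. In limma 6 had an unadjusted p under 0.05, as did 48.2% of all genes. After IFNγ, 2 were called with siPDL1-1 (*NOS2* higher, *SPR* lower), against 5.47% of all genes, and 0 with siPDL1-2, against 3.13%. For siPDL1-2 after IFNγ, edgeR and DESeq2 each called 1 (*GCH1*), against 4.20% and 3.53%. In limma 4 had an unadjusted p under 0.05, as did 40.8% of all genes. Directly between the siRNAs, 0 were called in unstimulated cells, against 4.35%. There edgeR and DESeq2 each called 1 (*GCH1*), against 5.86% and 4.95%. In limma 6 had an unadjusted p under 0.05, as did 44.7% of all genes. After IFNγ, 3 were called between the siRNAs (*NOS2* and *GCH1* higher with siPDL1-1, *SPR* lower), against 2.23%. The comparisons with siNC share the siNC libraries, and their values are therefore only set side by side.

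*GCH1* stayed just under the fold change threshold in several of these comparisons. In unstimulated cells its log2 fold change against siNC was -0.52 for siPDL1-1 (FDR = 0.00558), while siPDL1-2 gave 0.02 (95% interval -0.25 to 0.29, FDR = 0.922). The siPDL1-1 value was -0.31 without siNC unstimulated replicate 2 (FDR = 0.0796) and -0.74 without siNC unstimulated replicate 1 (FDR = 6.95e-04). After IFNγ the corresponding values were 0.33 (FDR = 0.0558) and -0.57 (FDR = 0.00336). Between siPDL1-1 and siPDL1-2 it was -0.54 without stimulation (FDR = 0.00362) and 0.90 after IFNγ (FDR = 1.62e-04), the latter called. With edgeR's quasi-likelihood test, with DESeq2 and with a pseudocount of 0.1, *GCH1* was also called lower with siPDL1-1 in unstimulated cells, against siNC (-0.74, -0.71 and -0.62) and against siPDL1-2 (-0.66, -0.65 and -0.64), and lower with siPDL1-2 after IFNγ (-0.59 with each).

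*SPR* (chr2:72887382-72892158, plus strand, GRCh38), the gene of the last step of BH4 synthesis, differed with siPDL1-1 in both conditions. In siNC cells it was 25.2 CPM in each unstimulated library and 24.9 CPM in each stimulated one. In siPDL1-1 cells it was 16.2 and 16.8 CPM, and 15.4 and 14.6 CPM after IFNγ. In siPDL1-2 cells it was 21.1 and 19.6 CPM, and 23.6 and 23.0 CPM after IFNγ. The 4 siPDL1-1 libraries were the lowest of the 12, with no overlap with the other groups.

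With siPDL1-1 the log2 fold change of *SPR* was -0.59 without stimulation (FDR = 9.29e-06) and -0.70 after IFNγ (FDR = 1.03e-06). With siPDL1-2 it was -0.30 (FDR = 0.00200) and -0.09 (FDR = 0.312), and siPDL1-1 was below siPDL1-2 by -0.29 without stimulation (FDR = 0.00303) and by -0.60 after IFNγ (FDR = 1.01e-05). The values at -0.59 and -0.60 lay close to the fold change threshold, and the calls were lost without siPDL1-1 unstimulated replicate 1 (-0.56) and without siPDL1-1 IFNγ replicate 2 (-0.57), respectively.

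The promoter window of *SPR* is shown because the gene was called lower with siPDL1-1 in both conditions. RefSeq windows (250 bases before and 50 after the start) were available for 8 of the 10 genes, and *NOS2* and *GCH1* had no entry. The windows were searched on both strands for the gamma-activated site TTCNNNGAA, the interferon-stimulated response element (GAAA, any 2 bases, GAAA), the cyclic AMP response element TGACGTCA, the E-box CACGTG, the inverted CCAAT box ATTGG and the GC box GGGCGG. In all 35116 windows of the table, these were found in 7.66%, 3.57%, 1.85%, 7.26%, 34.6% and 45.0%, respectively. The *SPR* window (GRCh38.p14, chr2:72887158-72887457, plus strand) held 5 GC boxes, 2 of which share a base, and none of the other motifs. Capitals mark the GC boxes.
SPR: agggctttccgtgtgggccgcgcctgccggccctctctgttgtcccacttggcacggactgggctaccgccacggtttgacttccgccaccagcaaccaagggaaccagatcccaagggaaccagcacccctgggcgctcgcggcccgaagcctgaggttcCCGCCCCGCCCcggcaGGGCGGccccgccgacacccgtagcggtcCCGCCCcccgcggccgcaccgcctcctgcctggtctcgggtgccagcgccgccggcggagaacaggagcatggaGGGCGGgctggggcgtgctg

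*PTS* (chr11:112226367-112269955, plus strand, GRCh38), the gene of the middle step, was also lower in knockdown cells but under the fold change threshold. It was 19.8 and 21.9 CPM in unstimulated and 21.6 and 22.8 CPM in stimulated siNC cells. In siPDL1-1 cells it was 15.7 and 15.1 CPM, and 14.9 and 16.3 CPM after IFNγ. In siPDL1-2 cells it was 17.0 and 18.6 CPM, and 17.0 and 18.1 CPM after IFNγ. All 8 knockdown libraries were below all 4 siNC libraries. The log2 fold changes with siPDL1-1 were -0.41 (FDR = 9.20e-04) and, after IFNγ, -0.48 (FDR = 2.12e-04), and those with siPDL1-2 were -0.22 (FDR = 0.0350) and -0.32 (FDR = 0.00620). *QDPR* (chr4:17460261-17512206, minus strand, GRCh38) had the narrowest range of the 9 genes relative to its level, from 23.2 to 28.5 CPM over the 12 libraries, and was not called in any comparison.

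**Figure D2:**
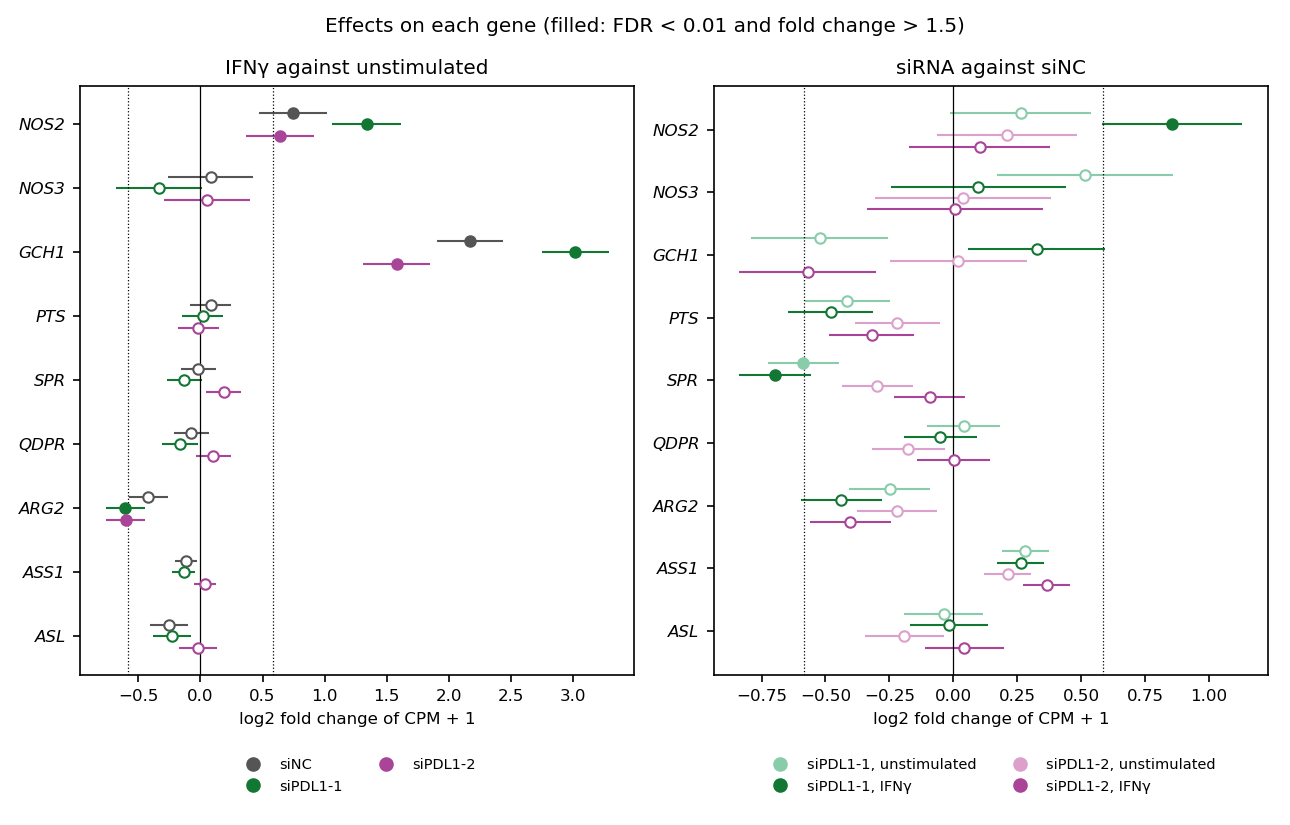
Log2 fold changes of CPM plus 1 for the 9 genes tested, with 95% intervals from limma; the left panel shows IFNγ against unstimulated cells by siRNA and the right panel each siRNA against siNC. Filled points passed both thresholds, dotted lines mark a fold change of 1.5, and *GCH1* reaches from 1.58 to 3.02 in the left panel.

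Of the 3 arginine genes, only *ARG2* (chr14:67619920-67651708, plus strand, GRCh38), which encodes the mitochondrial arginase, was called with IFNγ, and only in the knockdown groups. In siNC cells it was 55.6 and 52.6 CPM without stimulation and 41.3 and 39.2 CPM after IFNγ. In siPDL1-1 cells it was 44.7 and 45.9 CPM, and 26.9 and 32.1 CPM after IFNγ. In siPDL1-2 cells it was 44.4 and 48.3 CPM, and 30.3 and 30.1 CPM after IFNγ. Within each siRNA the stimulated libraries were lower, and within each stimulation the knockdown libraries were lower than the siNC libraries.

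*ARG2* fell by 0.61 on the log2 scale in siPDL1-1 cells (FDR = 1.25e-05) and by 0.60 in siPDL1-2 cells (FDR = 1.98e-05), both called. In siNC cells the log2 fold change of -0.42 (FDR = 3.50e-04) was under the fold change threshold, and the interactions of -0.19 and -0.18 (FDR = 0.416 and 0.210) do not show that the siRNA groups differed. The calls were lost without siPDL1-1 IFNγ replicate 1 (-0.48) and without siPDL1-2 unstimulated replicate 2 (-0.54), respectively. Against siNC after IFNγ, *ARG2* was at -0.44 in siPDL1-1 cells (FDR = 2.82e-04) and at -0.40 in siPDL1-2 cells (FDR = 8.27e-04). Without stimulation these values were -0.25 and -0.22 (FDR = 0.0188 and 0.0271). *VTI1B*, named after its values were seen, lies across *ARG2* on the other strand. Over the 12 libraries its mean was 73.6 CPM and that of *ARG2* 40.9 CPM, and reads shared by them were not separated.

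The promoter window of *ARG2* is shown because the gene was called lower after IFNγ in both knockdown groups. The window (GRCh38.p14, chr14:67619670-67619969, plus strand) held the cyclic AMP response element at 2 places, starting 172 and 64 bases before the start site, where 1.85% of all windows held any. It also held 2 CCAAT boxes, 1 on each strand, and 5 GC boxes, 2 of which overlap, but neither interferon motif. The interferon motifs were absent from all 10 windows of the 8 genes, so their absence is not particular to *SPR* and *ARG2*. Capitals mark these matches.
ARG2: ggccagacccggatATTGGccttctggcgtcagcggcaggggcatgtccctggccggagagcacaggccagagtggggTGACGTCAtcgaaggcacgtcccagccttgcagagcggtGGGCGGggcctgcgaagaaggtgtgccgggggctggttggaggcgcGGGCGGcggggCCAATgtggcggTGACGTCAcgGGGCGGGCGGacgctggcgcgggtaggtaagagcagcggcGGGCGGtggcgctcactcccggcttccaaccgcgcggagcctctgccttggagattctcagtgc

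Of the enzymes that rebuild arginine, *ASS1* (chr9:130444961-130501274, plus strand, GRCh38) was higher in knockdown cells by less than the fold change threshold. It was 173 and 180 CPM in unstimulated and 164 and 161 CPM in stimulated siNC cells. In siPDL1-1 cells it was 214 and 215 CPM, and 201 and 190 CPM after IFNγ. In siPDL1-2 cells it was 203 and 206 CPM, and 204 and 216 CPM after IFNγ. All 8 knockdown libraries were above all 4 siNC libraries. The log2 fold changes against siNC were 0.28 (FDR = 1.55e-04) and 0.21 (FDR = 0.00107) for siPDL1-1 and siPDL1-2 without stimulation, and 0.26 (FDR = 2.19e-04) and 0.37 (FDR = 2.17e-05) after IFNγ. Near-identical pseudogene copies of *ASS1* exist in the human genome, and reads placed on them would not be in these values.

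*ASL* (chr7:66075800-66094697, plus strand, GRCh38) ranged from 34.6 to 46.9 CPM and was not called in any comparison. Its log2 fold change with IFNγ was -0.25 in siNC cells (FDR = 0.0116), -0.23 in siPDL1-1 cells (FDR = 0.0218) and -0.02 in siPDL1-2 cells (FDR = 0.881).

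**Figure D3:**
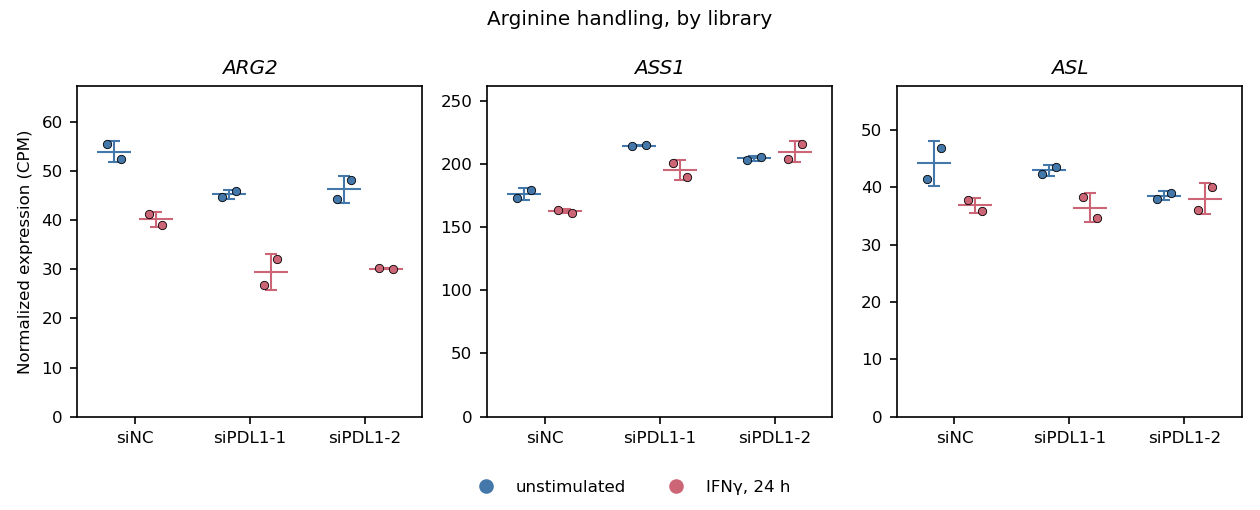
Normalized expression in CPM of *ARG2*, *ASS1* and *ASL*, by siRNA (horizontal axis) and stimulation (colour); points are the 2 libraries of a group, horizontal marks their mean and bars ± SD, with vertical axes from 0. *ARG2* is lower after IFNγ in each siRNA group, and *ASS1* is at or below 180 CPM only in the siNC libraries.

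Levels of the 10 genes were compared with one another after division by the length of the merged exons (GENCODE v44), as mean CPM per kb in a group. *ASS1* was highest, from 53.9 to 71.1 CPM per kb over the 6 groups, followed by *ARG2* from 12.9 to 23.7 and *SPR* from 10.3 to 17.3, except that *SPR* was above *ARG2* (13.2) in stimulated siPDL1-2 cells. *NOS2* was between 0.0957 and 0.621 CPM per kb and *NOS3* between 0.0781 and 0.183, far below the enzymes of BH4 synthesis. Without stimulation, *GCH1* was the lowest of the BH4 enzymes in each siRNA group (1.29 to 2.04 CPM per kb, where *PTS* was 4.92 to 6.68 and *QDPR* 5.67 to 6.64). After IFNγ it was above *PTS* and *QDPR* in each siRNA group, at 10.2 with siNC, 12.9 with siPDL1-1 and 6.76 with siPDL1-2, and it was above *SPR* with siPDL1-1, where *SPR* was 10.3. No test was made between genes.

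**Figure D4:**
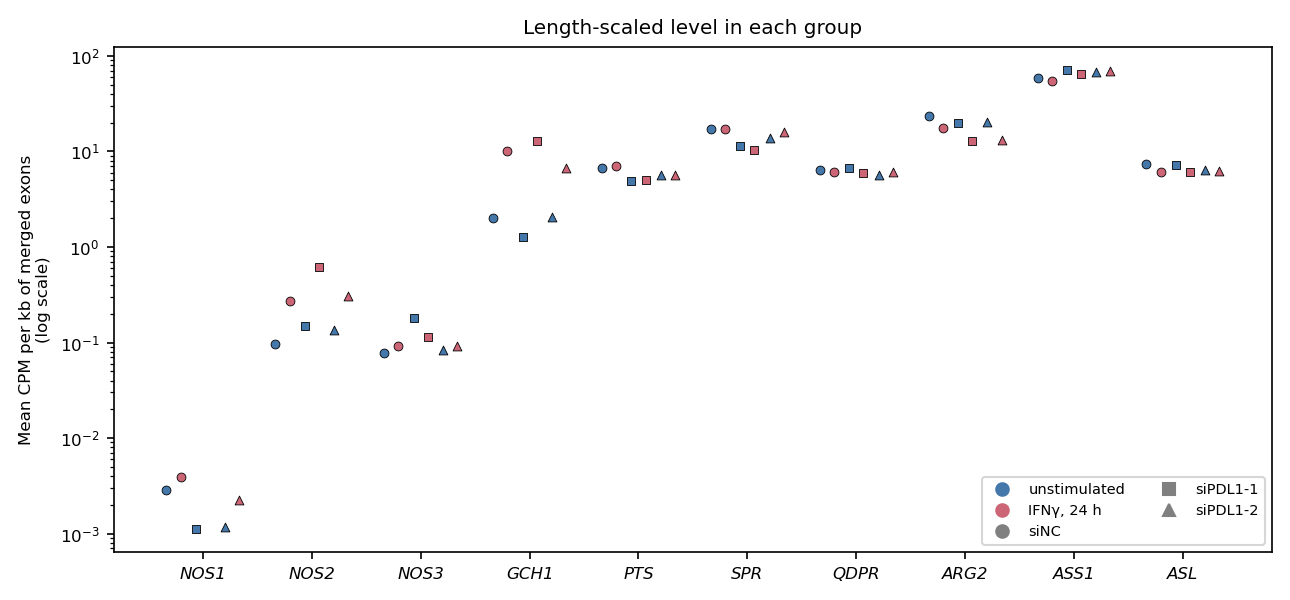
Mean CPM per kb of merged exons of each gene in each of the 6 groups, on a log axis; colour gives the stimulation and shape the siRNA. *NOS1* in stimulated siPDL1-1 cells was 0 and is not drawn, and *NOS2* and *NOS3* lie below 1 CPM per kb in every group.

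Related genes were examined in lists. Of 13 genes of BH4 synthesis and regeneration, 12 were tested, and IFNγ raised 2 in siNC cells, 3 in siPDL1-1 cells and 3 in siPDL1-2 cells, with none lowered, where 8.12%, 6.87% and 5.27% of all genes were called. The median log2 fold change of the list was -0.04, -0.06 and 0.08. Besides *GCH1* these were the carbonyl reductases *CBR3* and *CBR1*, which can act in a side route to BH4. In siNC cells *CBR3* went from 5.67 ± 0.608 to 9.88 ± 0.912 CPM (SD over 2 libraries). Its log2 fold change was 0.71 there (FDR = 1.25e-04), 1.31 in siPDL1-1 cells and 1.13 in siPDL1-2 cells. *CBR1* was called in the knockdown groups (0.69 in each) and stood at 0.35 in siNC cells. *PCBD2*, a paralogue of the dehydratase that recycles BH4, was called higher with siPDL1-2 in unstimulated cells (0.66, FDR = 8.95e-05). *AKR1B1*, an aldose reductase, was called higher with siPDL1-1 than with siPDL1-2 there (0.68, FDR = 9.22e-08). *GCHFR*, the feedback regulator of GTP cyclohydrolase, is named although its values chose it: it failed the filter and was between 0 and 0.202 CPM in every library.

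Of 8 BH4-dependent enzymes, 3 passed the filter, namely *NOS2*, *NOS3* and the tryptophan hydroxylase *TPH1*, and only *NOS2* was called in any comparison. It was called with IFNγ in siNC, siPDL1-1 and siPDL1-2 cells, where 8.12%, 6.87% and 5.27% of all genes were. After IFNγ it was called with siPDL1-1 against siNC (5.47% of all genes) and against siPDL1-2 (2.23%). The 11 genes of NOS partners were all tested. *HSP90AA1*, which encodes a chaperone that binds NO synthases, was the only one called in each of the 4 comparisons of an siRNA with siNC. Without stimulation 1 of the 11 was called with each siRNA (4.00% and 6.17% of all genes with siPDL1-1 and siPDL1-2), and after IFNγ 1 and 2 were (5.47% and 3.13%). Unstimulated siNC cells had 1353 ± 5.91 CPM, siPDL1-1 cells 725 ± 4.06 CPM and siPDL1-2 cells 846 ± 5.16 CPM (SD over 2 libraries). After IFNγ the values were 1397 ± 49.2, 700.3 ± 2.91 and 902 ± 25.7 CPM in the same order, and no siPDL1 library reached the siNC libraries. For siPDL1-1 the log2 fold change was -0.90 in unstimulated and -0.99 in stimulated cells, for siPDL1-2 it was -0.68 and -0.63, and the largest FDR was 1.59e-08. *CAV1*, which encodes caveolin, an inhibitor of endothelial NO synthase, rose with IFNγ in siPDL1-1 cells (0.62, FDR = 2.87e-07) and was lower with siPDL1-2 than with siNC after IFNγ (-0.69, FDR = 4.98e-07). The calmodulin gene *CALM2* was called in the siPDL1-2 interaction (-0.62, FDR = 3.82e-04).

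Of 25 genes of arginine and citrulline handling, 21 were tested, and IFNγ raised 0 and lowered 1 in each siRNA group, a share below the 8.12% and 6.87% of all genes in siNC and siPDL1-1 cells and close to the 5.27% in siPDL1-2 cells. The median log2 fold change of the list was -0.08, -0.14 and -0.08. The lowered gene was *SLC3A2*, the heavy chain of amino acid transporters, in siNC cells (296 ± 7.70 CPM without and 178 ± 7.82 CPM with IFNγ, log2 fold change -0.73, FDR = 1.98e-08) and *ARG2* in the knockdown groups. *SLC3A2* stood at -0.38 in siPDL1-1 and -0.07 in siPDL1-2 cells, and the siPDL1-2 interaction of 0.66 was called (FDR = 4.20e-05). Among cationic amino acid transporters, *SLC7A2* was higher in unstimulated siPDL1-1 cells (0.67, FDR = 9.49e-05) and in unstimulated siPDL1-2 cells (0.63, FDR = 1.14e-04), and *SLC7A6* was lower with siPDL1-1 both without stimulation and after IFNγ (-0.73 in each). *DDAH1*, which degrades inhibitory methylarginines, was called in the siPDL1-2 interaction (-0.62, FDR = 3.18e-04). Of the urea cycle genes, named here after their values were seen, *ARG1* and *OTC* did not exceed 0.0706 and 0.0580 CPM in any library, while *CPS1* was between 36.8 and 46.1 CPM.

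Of 14 genes of NO signalling and removal, 12 were tested. With IFNγ in siNC or siPDL1-1 cells limma called none, where 8.12% and 6.87% of all genes were called. By edgeR there were 1 and 0, where 9.71% and 8.12% of all genes were called. At an unadjusted p under 0.05 in limma there were 6 and 5, where 46.2% and 42.5% of all genes were. In siPDL1-2 cells, where 5.27% of all genes were called, 2 were lowered, the guanylate cyclase subunit *GUCY1A2* (-0.66, FDR = 0.00237) and the cyclic GMP phosphodiesterase *PDE5A* (-0.72, FDR = 3.95e-04). *GUCY1A2* was higher with siPDL1-2 in unstimulated cells (0.85, FDR = 1.96e-04). Its partner subunit *GUCY1B1* was lower with siPDL1-1 than with siPDL1-2 there (-0.62, FDR = 1.72e-05). Among other phosphodiesterases, *PDE2A* was lower with siPDL1-1 (-0.79, FDR = 2.59e-04, and -0.61 after IFNγ, FDR = 0.00169), and *PDE9A* was lower with siPDL1-2 after IFNγ (-0.76, FDR = 1.01e-04).

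Of 18 genes that induce *NOS2*, 16 were tested, and IFNγ raised 6 in each siRNA group and lowered none, where 8.12%, 6.87% and 5.27% of all genes were called. The median log2 fold change of the list was 0.18, 0.31 and 0.27. They included the kinase *JAK2* and the transcription factor *IRF1*, which act in the response to IFNγ, and the receptors *TLR3* and *TLR4* in each group, with *NFKBIZ* in siNC and siPDL1-1 cells and *CEBPB* in siPDL1-2 cells. *IRF1* had log2 fold changes of 4.85, 4.44 and 4.83 in siNC, siPDL1-1 and siPDL1-2 cells. *JAK2* rose by 2.03, 2.13 and 1.10, and the siPDL1-2 interaction of -0.93 was called (FDR = 4.29e-05). Against siNC, siPDL1-2 raised *JAK2* in unstimulated cells (0.79, FDR = 1.05e-06) and had it at -0.14 after IFNγ (FDR = 0.169). *TLR3* was also called higher with siPDL1-2 in unstimulated cells (0.77, FDR = 2.65e-05). Against siNC after IFNγ, siPDL1-1 raised *JAK2* (0.67), *TLR3* (0.76) and the interleukin receptor *IL1R1* (0.62) and lowered *IRF1* (-0.63), and siPDL1-2 lowered *NFKBIZ* (-0.77).

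**Figure D5:**
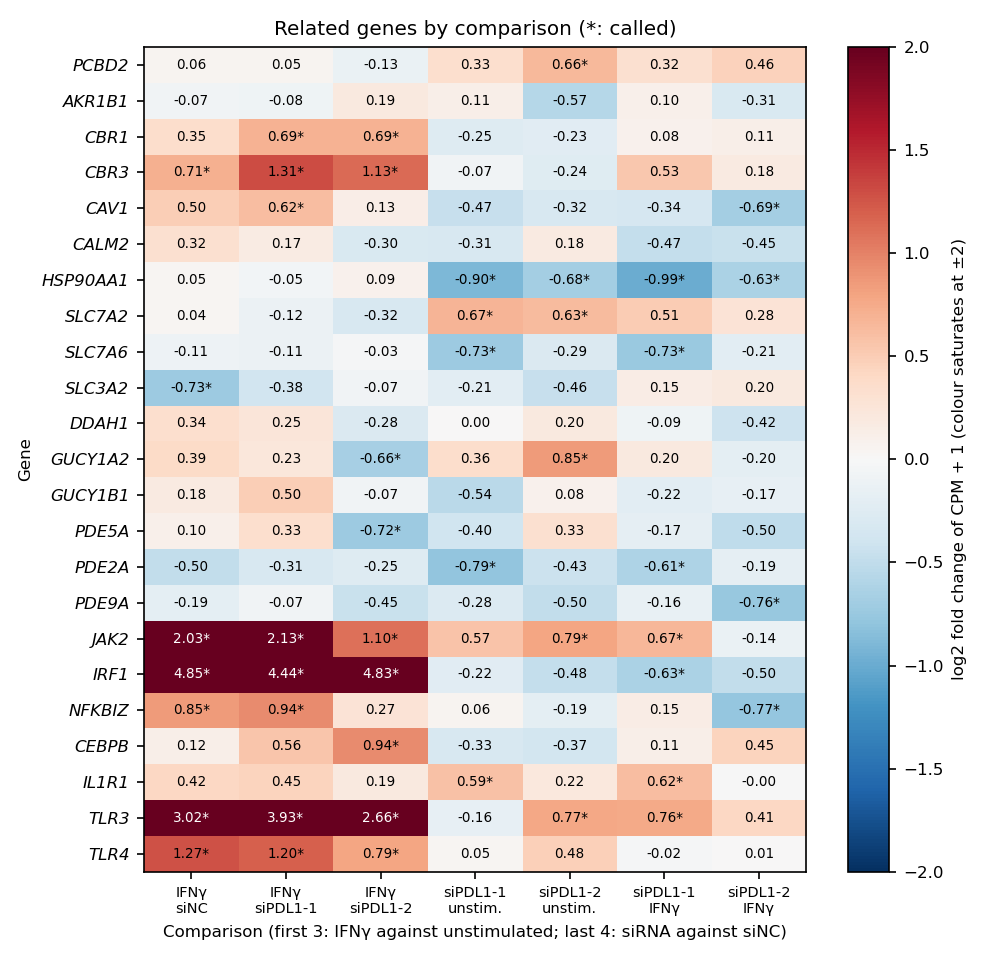
Log2 fold changes of CPM plus 1 of 23 genes from 5 of the lists of related genes. Each gene was called in at least 1 comparison and is not among the 10 genes described. Columns are the effects of IFNγ by siRNA and of each siRNA by stimulation, and asterisks mark calls. *HSP90AA1* is called in all 4 siRNA columns (-0.63 to -0.99), and *IRF1*, *JAK2*, *TLR3* and *TLR4* in all 3 IFNγ columns.

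A list of 15 type I interferon-response genes moved with siPDL1-1. Their summed level was 82.1 and 83.6 CPM in unstimulated siNC, 148 and 146 CPM in siPDL1-1 and 75.6 and 74.8 CPM in siPDL1-2 libraries. After IFNγ the siNC libraries had 566 and 534 CPM, the siPDL1-1 libraries 5315 and 5205 CPM and the siPDL1-2 libraries 607 and 638 CPM. The gene of the list with the highest mean CPM over all libraries, not divided by length, was *IFIT3*. It was 700 and 721 CPM in the stimulated siPDL1-1 libraries but 2.69 and 2.23 CPM in the unstimulated siNC libraries, so this rank does not hold in each group. The 5 largest differences of siPDL1-1 from siNC after IFNγ were those of *MX2* (4.79), *OAS2* (4.34), *OAS1* (4.30), *RSAD2* (4.10) and *IFI44L* (3.57), which act in antiviral defence. Of the 15 genes, siPDL1-1 raised 12 without stimulation and 14 after IFNγ, where 4.00% and 5.47% of all genes were called, with medians of the log2 fold change of 1.00 and 3.36 (0.016 and -0.0049 over all genes). With siPDL1-2 there were 0 and 2, where 6.17% and 3.13% of all genes were called, with medians of 0.04 and 0.21 (0.028 and -0.0061 over all genes). At the count of 0, 5 of the 15 had an unadjusted p under 0.05 in limma, where 48.2% of all genes did. By edgeR 0 were called there, where 7.52% of all genes were. The 15th gene, *MX1*, is named after its values were seen and was not called in these comparisons. The part of this difference in the values of *NOS2*, *GCH1* and *SPR* with siPDL1-1 was not tested.

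The genes whose levels followed those of the pathway most closely were sought among the 14277 genes that averaged 1 CPM or more, by Pearson's r of log2(CPM + 1) over the 12 libraries. The libraries fall into 6 groups and share treatments, so r describes mainly group differences and no p-value is given. For *NOS2* these were *ATP10A* (r = 0.988), *SAMD9* (0.985) and *OAS2* (0.984), and *ATP10A* after IFNγ was 11.9 ± 0.123 CPM in siNC, 44.8 ± 3.30 CPM in siPDL1-1 and 14.5 ± 1.49 CPM in siPDL1-2 cells (SD over 2 libraries). For *GCH1* they were *CYLD* (0.995), *SLFN12* (0.992) and *XRN1* (0.991), and *CYLD* was 124 ± 0.742, 131 ± 5.06 and 103 ± 2.56 CPM, in the same order of siRNAs as *GCH1*. For *ASS1* they were *PEBP1* (0.981), *CYB561A3* (0.977) and *TAX1BP3* (0.975).

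The labelled cell line was checked against markers. Of 7 glioma or astrocyte markers all were tested, *VIM* had the most CPM, not divided by length (3139 to 3968 over the libraries), and *GFAP* was between 1.92 and 7.25 CPM. IFNγ lowered *GFAP* in siNC, siPDL1-1 and siPDL1-2 cells (-0.62, -0.68 and -1.33, largest FDR = 2.38e-04) and raised *SOX2* in siNC and siPDL1-1 cells (0.66 and 0.60, largest FDR = 1.40e-04). Against siNC in unstimulated cells, 2 of the 7 were called higher with siPDL1-2 (6.17% of all genes tested) and 1 with siPDL1-1 (4.00%). There edgeR called 1 and 2, where 7.52% and 4.85% of all genes were called. The median log2 fold changes were 0.39 and 0.08 (0.028 and 0.016 over all genes). After IFNγ limma called 0 with each siRNA (3.13% and 5.47%), and edgeR 0 and 1 (4.20% and 6.93%). The siPDL1-2 interaction had 1 called lower (7.62%), with a median of -0.42. Of 8 macrophage and microglia markers, listed because these cells are known for *NOS2* or could be carried over, 3 were tested. Between 2 and 4 of the 8 were at 0 in a library. Nearly all of their summed level of 29.1 to 80.9 CPM came from *CD68* (28.2 to 80.2 CPM), a lysosomal gene that other cells also express. Their sum was 29.1 and 29.9 CPM in unstimulated siNC, 38.7 and 41.0 CPM in siPDL1-1 and 45.3 and 42.2 CPM in siPDL1-2 libraries, and 42.6 and 42.3, 75.8 and 80.9, and 47.9 and 51.3 CPM after IFNγ. *CD68* was called higher with siPDL1-1 after IFNγ (0.89, FDR = 3.98e-08), the group in which *NOS2* was highest. *PTPRC*, *AIF1*, *ITGAM* and *TYROBP* did not exceed a group mean of 0.130 CPM, and *FCER1G* did not exceed 0.138 CPM. The others that passed the filter were *CSF1R* (group means from 0.391 to 1.08 CPM, highest in unstimulated siPDL1-1 cells) and *CD14* (0.152 to 0.545 CPM, highest in the same group), and neither was called in any comparison. The part of such cells in the *NOS2* values was not tested. The 3 T cell markers summed to at most 0.0240 CPM, the 3 endothelial markers to between 2.01 and 5.63 CPM, most of it *VWF*, and the 3 neuronal markers to between 2.89 and 5.28 CPM, most of it *SYT1*. The endothelial marker *CDH5* was called higher with siPDL1-1 than with siNC without stimulation (0.80, FDR = 5.56e-04), the comparison in which *NOS3* was at 0.51, and after IFNγ (0.61, FDR = 0.00357). *CDH5* was 1.54 ± 0.117 CPM in unstimulated siPDL1-1 and 0.462 ± 0.169 CPM in unstimulated siNC cells (SD over 2 libraries), while *VWF* was at -0.14 in that comparison (FDR = 0.538). IFNγ lowered *VWF* in siNC, siPDL1-1 and siPDL1-2 cells (-0.97, -0.64 and -0.64, largest FDR = 0.00595). The part of such cells in the *NOS3* values was not tested.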

How the data were processed

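RNA-seq libraries of siNC, siPDL1-1 and siPDL1-2 cells were grouped by their labels. Per the methods, reads were trimmed and mapped to GRCh38 (Ensembl) by the authors in CLC Genomics Workbench and counted on both strands. The deposited signal values are the authors' normalized CPM, and in every library 100% of them were whole multiples of 1 read within 0.1 read, so reads were recovered. The extraction kit and instrument in the methods differ from those in the labels.

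Genes were filtered with edgeR's filterByExpr (minimum count 10, minimum total 15) and log2(CPM + 1) was fitted with limma (trend, robust) over 6 groups of 2 libraries, with Benjamini-Hochberg adjustment over all genes. Fits were tested on simulated data. Replicate reads differed beyond sampling noise (mean chi-square from 1.85 to 7.76 per gene), so no library was a copy. Same-numbered libraries did not deviate together in most of the 15 pairs of groups (r from -0.187 to 0.252, 2 pairs over 0.1). This cannot exclude that they were paired, and the main fit did not use the numbers as pairs. The members and lists were chosen with earlier results of these data known. Named genes are the members, *CD274*, up to 5 called genes of each list and comparison with the largest changes, and the 3 genes most like *NOS2*, *GCH1* and *ASS1*. An item of the lists is not reported here. Alternatives were edgeR's quasi-likelihood test, DESeq2's test and size factors, CPM without the authors' scaling factors, a pseudocount of 0.1, no filter, a replicate block, fits of the compared libraries only, leaving out each library, and FDR < 0.05 with no fold threshold. Versions were DESeq2 1.42.0, edgeR 4.0.16 and limma 3.58.1 in R 4.3.3, and matplotlib 3.10.9 in Python 3.11.15.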

Additional observations from a re-analysis of the deposited data

Results flagged for a closer look

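The effect of IFNγ on *GCH1* differed between the siRNAs: it was larger in siPDL1-1 than in siPDL1-2 cells by 1.44 on the log2 scale (FDR = 9.42e-05 from limma), and both stimulated siPDL1-1 libraries were above and both unstimulated ones below all siPDL1-2 libraries of the same stimulation. *CD274* differed between the siRNAs in the same way (1.08, FDR = 9.83e-06), and its reduction by siPDL1-2 was larger after IFNγ than without stimulation (-0.65, FDR = 5.37e-04), which edgeR (-0.55) and DESeq2 (-0.54) did not call. The comparison of the IFNγ effects between siPDL1-1 and siPDL1-2 cells was added after the data had been seen. With 2 libraries per group, no library could be tested for standing apart from its group.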

How the results depend on the processing

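No called difference of the 9 genes or of *CD274* changed direction under an alternative. By edgeR, 7 differences of the 9 genes took the opposite sign, none of them called, among them *GCH1* for siPDL1-2 against siNC unstimulated (0.02 in limma, -0.08 in edgeR) and *NOS3* there (0.04 and -0.06). Of the values recomputed under the alternatives for single genes, 358 kept their direction and side of the thresholds, 18 passed the thresholds in addition and 12 no longer did. With FDR < 0.05 and no fold change threshold, 5, 5, 6, 6, 5, 4 and 4 of the 9 genes were called for IFNγ in siNC and siPDL1-1 cells, siPDL1-1 and siPDL1-2 against siNC unstimulated, siPDL1-1 and siPDL1-2 against siNC after IFNγ, and siPDL1-1 against siPDL1-2 unstimulated, where 38.3%, 33.9%, 28.9%, 40.8%, 35.2%, 30.6% and 36.7% of all genes were. It gave 4 for IFNγ in siPDL1-2 cells (28.9% of all genes), 1 for each interaction with siNC (3.18% for siPDL1-1 and 29.6% for siPDL1-2) and 3 for the IFNγ effects between siRNAs (23.4%). edgeR's quasi-likelihood test, DESeq2 and a pseudocount of 0.1 each gave 2 for siPDL1-1 against siNC unstimulated (4.85%, 4.13% and 4.89% of all genes), 1 for siPDL1-2 against siNC after IFNγ (4.20%, 3.53% and 4.05%) and 1 for siPDL1-1 against siPDL1-2 unstimulated (5.86%, 4.95% and 5.46%). edgeR, DESeq2 and DESeq2's size factors each gave 1 for the siPDL1-1 interaction (*GCH1*, where 0.906%, 0.901% and 1.10% of all genes were called). Leaving out 1 library gave 1 to 3 for IFNγ in siPDL1-2 cells, 0 to 2 for siPDL1-1 against siNC unstimulated, 0 to 1 for the siRNAs unstimulated and for each interaction with siNC, and 1 to 2 for the IFNγ effects between siRNAs. The calls not given above were *GCH1* for siPDL1-1 against siNC unstimulated without siNC unstimulated replicate 1 (-0.74) and against siPDL1-2 without siPDL1-2 unstimulated replicate 1 (-0.65), and *NOS2* for the IFNγ effects between siRNAs without siPDL1-2 IFNγ replicate 1 (0.82). Each fit without 1 library left a group with 1 library. The counts from these fits therefore cannot show whether a gained or lost call is particular to the 9 genes. DESeq2 also called the *CD274* interaction for siPDL1-1 (0.66, FDR = 0.00954). The called *CD274* interaction for siPDL1-2 lost its fold threshold with edgeR (-0.55) and DESeq2 (-0.54). The replicate block left every count of members called unchanged (2 for IFNγ in siNC cells), and 2 of the 15 pairs of groups had r over 0.1. *NOS2* and *NOS3* rest on few reads (10 and 6 in the shallowest cases), which limits their precision.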
